A study of Mus musculus with 6 samples.

Results

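The EphB receptors of the mouse are encoded by 5 genes, *Ephb1*, *Ephb2*, *Ephb3*, *Ephb4* and *Ephb6*, and these genes were taken by symbol from the 50686 gene identifiers of the count tables. All 5 were found under their GENCODE vM21 identifiers, and all 5 passed the filter on low counts. RNASeq was available for 2 NSC cultures (wild type) and 2 cultures labelled NSC Bmi1Over (STOPFloxBmi1;NestinCre), and ChIPSeq of H3K27me3, the silencing mark written by Polycomb repressive complex PRC2, for 1 library of each genotype. The cells were primary neural stem cells prepared from mouse embryos at E16.5 and expanded in culture with growth factors. By design, Cre under the *Nestin* promoter removes a stop cassette in NSC Bmi1Over. This is meant to switch on the *Bmi1* transgene in neural precursors and the cells derived from them. The tumour initiating cells of the series were not analysed here.

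Eph receptors are receptor tyrosine kinases whose ligands, the ephrins, are bound to the membrane of the neighbouring cell. EphB receptors mainly bind the transmembrane ephrin-B ligands, and contact signals in both directions: forward into the cell with the receptor, through its kinase and Src family kinases, and in reverse into the cell with the ephrin. In the developing brain and in the subventricular zone they are known for boundary formation, axon guidance and the control of progenitor migration and proliferation. *Ephb6* encodes a receptor without kinase activity, and *Ephb4*, the main receptor of ephrin-B2, is best known from the venous endothelium.

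The EphB genes were expressed in every library and 1 of the 5 had an H3K27me3 promoter peak in NSC and 0 in NSC Bmi1Over, beside 8.92% and 4.45% of all protein-coding genes. *Ephb4* was 1.96-fold higher in the libraries labelled NSC Bmi1Over than in NSC, and this difference passed the test under each of the 12 alternative settings of the expression analysis. The other 4 receptors were between 1.24-fold and 1.55-fold higher and did not pass, although *Ephb6* was called under 5 of the 12 alternatives, *Ephb2* under 4, *Ephb1* under 3 and *Ephb3* under 1. In each setting that added an EphB call, the number of all genes called rose as well, from 334 to between 1461 and 3459. The only H3K27me3 peak near any of the 5 genes was a short one in the NSC list, upstream of *Ephb2*.

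Between 18112100 and 61353076 reads were counted on genes in a library, NSC Bmi1Over replicate 2 being the deepest, and between 4267 and 18666 of them fell on the 5 EphB genes. In bulk RNA, a change in the number of cells that express a gene and a change in its RNA per cell cannot be told apart. The direction of every comparison rests on the labels, as *Bmi1* itself was at 133.3 and 123.5 CPM (reads scaled to a common library size with TMM factors) in NSC and at 118.6 and 112.6 CPM in the libraries labelled NSC Bmi1Over. The neural stem cell markers *Nes*, *Sox2*, *Pax6*, *Fabp7*, *Vim*, *Slc1a3*, *Hes1* and *Prom1* were all present, with a summed level between 5939 and 6644 CPM, and none of the 8 was called between the groups. Their median log2 fold change was −0.17, and 5 of the 8 were lower in both NSC Bmi1Over libraries than in either NSC library, as were 30.0% of all genes tested. The lowest was *Sox2* (−0.42, adjusted p = 0.129). Of the 8, 3 had a log2 fold change above 0, the highest being *Slc1a3* (0.46). It had the highest level of the 8 in every library, at 1839 and 2228 CPM in NSC and 2533 and 3063 CPM in NSC Bmi1Over. Over all genes tested 2.15% were called and 48.6% had a log2 fold change above 0, which is the background for these counts in every list. Markers of mesenchymal or mural cells, microglia and erythroid cells reached at most 2.38, 2.96 and 0.507 CPM in any library. Of these markers only 2 of 6, 1 of 6 and 1 of 4 were tested, and none was called. The median log2 fold changes of those tested were −0.52, 0.82 and 0.30. Of the 6 neuronal markers tested, 1 was called (*Syt1*, 2.18 on the log2 scale, higher) and 2 had a log2 fold change above 0, with a median of −0.14. Of the 6 astrocytic markers 1 was called (*Aldh1l1*, −0.86, lower) and 3 were above 0, with a median of −0.02. *Syt1* was no longer called without NSC Bmi1Over replicate 2 (1.89, adjusted p = 0.0713) or with DESeq2's size factors (adjusted p = 0.0517), and *Aldh1l1* neither without NSC replicate 1 (−0.66, adjusted p = 0.124) nor without NSC Bmi1Over replicate 2 (−0.71, adjusted p = 0.0897). None of the 7 oligodendrocyte lineage markers was called.

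In mm10 (GRCm38), *Ephb1* (ENSMUSG00000032537) is found on chromosome 9, minus strand, from 101922128 to 102354693, *Ephb2* (ENSMUSG00000028664) on chromosome 4, minus strand, from 136647539 to 136835988, *Ephb3* (ENSMUSG00000005958) on chromosome 16, plus strand, from 21204755 to 21223305, *Ephb4* (ENSMUSG00000029710) on chromosome 5, plus strand, from 137350109 to 137378669, and *Ephb6* (ENSMUSG00000029869) on chromosome 6, plus strand, from 41605482 to 41620509. Since the single called peak near these genes lies upstream of *Ephb2*, the sequence under that peak is shown first, on the strand of the gene. It is followed by the bases 250 to 51 before the RefSeq start site of *Ephb2*, of *Ephb4*, the receptor that differed between the groups, and of *Ephb6*, whose window held the most CpG dinucleotides. Capitals mark CpG, the dinucleotide whose islands H3K27me3 is known to favour.
Ephb2 upstream peak, chr4:136839675-136839941, minus strand: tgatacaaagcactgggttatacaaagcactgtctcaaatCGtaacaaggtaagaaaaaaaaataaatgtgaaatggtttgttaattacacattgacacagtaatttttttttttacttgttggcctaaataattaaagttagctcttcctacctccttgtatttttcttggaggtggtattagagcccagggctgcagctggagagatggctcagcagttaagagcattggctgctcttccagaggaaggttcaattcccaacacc
Ephb2 promoter, chr4:136836063-136836262, minus strand: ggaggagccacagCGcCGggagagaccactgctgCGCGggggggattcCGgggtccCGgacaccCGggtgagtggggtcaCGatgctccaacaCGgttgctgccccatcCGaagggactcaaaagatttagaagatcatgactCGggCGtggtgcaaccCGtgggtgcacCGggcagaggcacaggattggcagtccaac
Ephb4 promoter, chr5:137349859-137350058, plus strand: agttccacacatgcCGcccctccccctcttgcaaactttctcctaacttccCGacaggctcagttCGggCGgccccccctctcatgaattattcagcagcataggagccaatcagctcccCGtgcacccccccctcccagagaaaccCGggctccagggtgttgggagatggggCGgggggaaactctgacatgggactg
Ephb6 promoter, chr6:41605261-41605460, plus strand: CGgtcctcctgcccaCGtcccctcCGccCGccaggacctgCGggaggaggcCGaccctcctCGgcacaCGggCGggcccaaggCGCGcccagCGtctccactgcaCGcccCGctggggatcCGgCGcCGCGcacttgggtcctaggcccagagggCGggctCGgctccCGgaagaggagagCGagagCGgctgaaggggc

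The peak held 1 CpG in 267 bp, whereas the 200 bp printed from the *Ephb2* promoter held 14, those from *Ephb4* 7 and those from *Ephb6* 23. Over the whole RefSeq window of 300 bp (build GRCm38.p6), *Ephb1* and *Ephb4* had 14 CpG each, *Ephb3* 23, *Ephb2* 24 and *Ephb6* 34. All 5 promoters were thus above the median of 7 CpG over the 32851 promoter windows of that set. The GC content of the 5 windows lay between 55.7% (*Ephb1*) and 76.3% (*Ephb6*). Neither CTTTGA, the core of TCF/LEF sites, nor TATAAA was found on either strand of any of the 5 windows, and these words occur in 16.0% and 13.6% of all windows. A missing match says only that these letters are not in this window.

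Levels of different receptors were compared as TMM-normalised CPM per kb of exon. *Ephb3*, a receptor with a kinase that mediates repulsion at boundaries, had the highest level in all 4 libraries, at 10.6 and 12.1 CPM per kb in NSC and 11.7 and 16.2 CPM per kb in the libraries labelled NSC Bmi1Over. *Ephb2*, known for its part in axon guidance and excitatory synapses, had the lowest, at 3.64 and 3.77 CPM per kb in NSC and 4.46 and 6.30 CPM per kb in NSC Bmi1Over. The library with the lowest *Ephb3* level was thus still well above the library with the highest *Ephb2* level. In NSC the levels of the other 3 were 5.24 ± 0.0387 (*Ephb4*), 4.94 ± 0.534 (*Ephb1*) and 4.72 ± 0.651 CPM per kb (*Ephb6*; SD, n = 2 each), and these neighbours did not differ beyond their spread. *Ephb2* lay below all of them in both NSC libraries. In the libraries labelled NSC Bmi1Over the order was *Ephb3*, *Ephb4*, *Ephb6*, *Ephb1*, *Ephb2*, with *Ephb4* at 10.3 CPM per kb in both libraries and above the ranges of *Ephb6*, *Ephb1* and *Ephb2*. The highest level was between 2.57 and 3.20 times the lowest in any library. The order of the middle genes depended on the length used. Per kb of the longest annotated transcript, *Ephb1* lay above *Ephb4* in 3 of the 4 libraries.

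**Figure D1:**
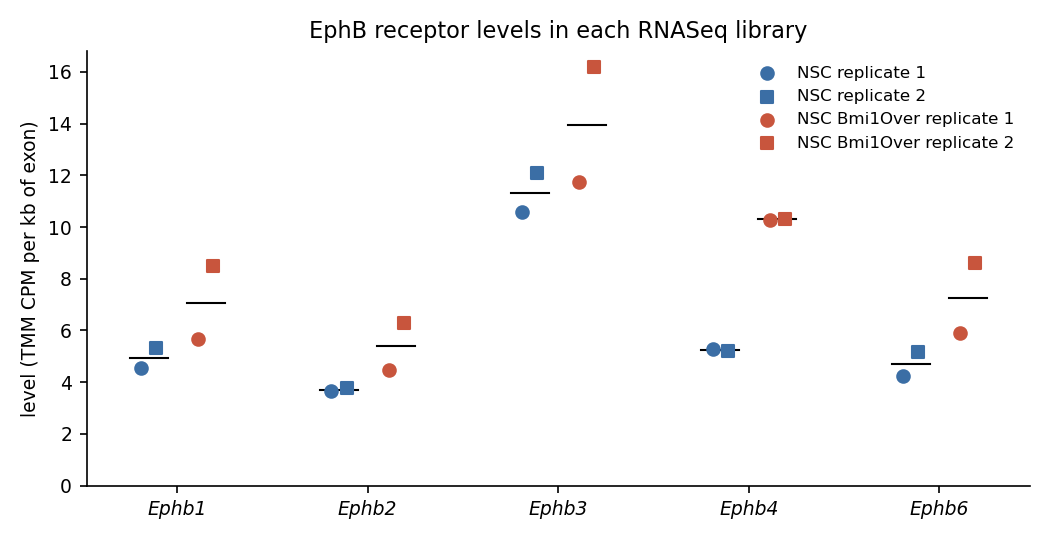
Level of each EphB receptor in each of the 4 RNASeq libraries, in TMM-normalised CPM per kb of exon. Points are libraries and black bars the mean of the 2 libraries of a group. *Ephb4* sits at 5.22 to 5.27 in NSC and at 10.3 in both NSC Bmi1Over libraries, whereas for the other receptors NSC Bmi1Over replicate 2 stands above the other 3 libraries.

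Among 21764 protein-coding genes ranked by level per kb, the receptors lay between percentile 61.8 (*Ephb2* in NSC replicate 1) and percentile 86.1 (*Ephb3* in NSC Bmi1Over replicate 2). Within the Eph receptor family, EphB genes took 5 of the first 6 places in NSC. *Epha5*, at 9.32 ± 0.241 CPM per kb (SD, n = 2), came after *Ephb3*, and the next EphA receptor, *Epha4*, stood at 1.59 ± 0.0729 CPM per kb. The summed level of the 5 EphB receptors was 28.3 and 31.6 CPM per kb in NSC and 38.0 and 49.9 CPM per kb in the libraries labelled NSC Bmi1Over. That of the 9 EphA receptors was 12.7 and 13.7 CPM per kb in NSC and 15.7 and 17.8 CPM per kb in NSC Bmi1Over. EphB receptors thus made up 69.0% and 69.7% of the receptor level in NSC, and 70.7% and 73.7% in NSC Bmi1Over.

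The comparison of the libraries labelled NSC Bmi1Over with NSC used edgeR's quasi-likelihood F-test over 15521 genes, with p adjusted by the Benjamini-Hochberg method over all of them. Genes called in either direction made up 2.15% of those tested, and genes called higher 2.03%. Of the 5 EphB receptors, 1 was called higher and 0 lower, and 4 had an unadjusted p under 0.05, which was the case for 24.2% of all genes tested. The median log2 fold change of the 5 was 0.54, beside −0.01 over all genes tested. The p-values rest on the spread between these cultures, which edgeR estimates for each gene with information shared across the genes tested. With 2 cultures per group, the smallest two-sided p of an exact permutation test on a single gene is 0.333.

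*Ephb4* was counted with 772 and 612 reads in NSC and with 835 and 2734 reads in the libraries labelled NSC Bmi1Over. Normalised, this was 24.5 and 24.2 CPM in NSC and 47.7 and 47.8 CPM in NSC Bmi1Over. The groups did not overlap, and within each group the libraries lay closer together (SD 0.738% and 0.218% of the mean) than the counting error of a single library, between 1.91% and 4.04%. The log2 fold change was 0.97 (standard error 0.12, 95% interval 0.70 to 1.25), and edgeR's quasi-likelihood test gave an adjusted p of 0.0132. It ranked 33rd of all genes tested by p. When any 1 culture was left out, *Ephb4* was still called, with a log2 fold change between 0.96 and 0.98. *Ephb4* is a marker of venous endothelium, and none of the 7 endothelial markers was called. They summed to 4.47 and 5.74 CPM in NSC and to 6.85 and 8.79 CPM in NSC Bmi1Over. Of the 4 that were tested, all had a log2 fold change above 0 (median 0.71) and 2 had an unadjusted p under 0.05. These 2 were *Emcn*, at 0.285 and 0.277 CPM in NSC and 0.685 and 1.14 CPM in NSC Bmi1Over (log2 fold change 1.77, adjusted p = 0.0684), and *Tek*, at 0.887 and 1.74 CPM in NSC and 2.34 and 2.36 CPM in NSC Bmi1Over (0.86, adjusted p = 0.183). *Kdr* had a log2 fold change of 0.57 (adjusted p = 0.249) and *Flt1*, whose groups overlapped, of 0.17 (adjusted p = 0.770). *Pecam1* was at 0.254 and 0.158 CPM in NSC and 0.0571 and 0.420 CPM in NSC Bmi1Over. The defining marker *Cldn5* was at 0 in all libraries, and *Cdh5* was counted with 0, 1, 4 and 2 reads. The part of endothelial cells in the *Ephb4* difference was not tested.

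*Ephb6*, the receptor without kinase activity, was at 16.1 and 19.5 CPM in NSC and at 22.3 and 32.4 CPM in the libraries labelled NSC Bmi1Over. The groups did not overlap, yet the 2 NSC Bmi1Over libraries differed more from each other than the lower of them did from NSC. The log2 fold change was 0.63 (standard error 0.20, 95% interval 0.19 to 1.08; adjusted p = 0.103 from edgeR's test). *Ephb2* was at 45.9 and 47.5 CPM in NSC and at 56.3 and 79.5 CPM in NSC Bmi1Over, with a log2 fold change of 0.54 (standard error 0.17, 95% interval 0.16 to 0.93; adjusted p = 0.102). *Ephb1*, which signals through its kinase to Src and adaptor proteins such as Nck, was at 32.0 and 37.3 CPM in NSC and at 39.6 and 59.4 CPM in NSC Bmi1Over, with a log2 fold change of 0.53 (standard error 0.19, 95% interval 0.09 to 0.96; adjusted p = 0.147). Both genes had every NSC Bmi1Over library above every NSC library, and neither passed the threshold. *Ephb3* was at 70.2 and 80.2 CPM in NSC and at 77.9 and 107.5 CPM in NSC Bmi1Over. Here the groups overlapped, and the log2 fold change of 0.31 (standard error 0.17, 95% interval −0.08 to 0.69; adjusted p = 0.295) did not pass. Groups that did not overlap, with the higher values in NSC Bmi1Over, were found for 4 of the 5 receptors and for 29.0% of all genes tested. The opposite pattern was found for 0 receptors and 30.0% of all genes, and either pattern for 59.0% of all genes.

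The size of these 4 smaller differences depended on which NSC Bmi1Over library was used. Between the 2 NSC Bmi1Over libraries, *Ephb1*, *Ephb2*, *Ephb3* and *Ephb6* differed by 0.59, 0.50, 0.47 and 0.54 on the log2 scale, and *Ephb4* by 0.00. Between the 2 NSC libraries they differed by 0.22, 0.05, 0.19 and 0.28, and *Ephb4* by −0.02. Without NSC Bmi1Over replicate 2, the log2 fold changes were 0.20 for *Ephb1*, 0.27 for *Ephb2*, 0.05 for *Ephb3* and 0.33 for *Ephb6*, none of them called. Without NSC Bmi1Over replicate 1 all 5 receptors and 2546 of all 16345 genes tested were called, with 0.78 for *Ephb1*, 0.76 for *Ephb2*, 0.51 for *Ephb3* and 0.86 for *Ephb6*, and without NSC replicate 2 *Ephb6* was called as well (0.77). Without NSC replicate 1 the log2 fold changes of these 4 lay between 0.21 (*Ephb3*) and 0.52 (*Ephb2*). The share of reads that could not be mapped was 11.2% and 13.7% in NSC and 16.2% and 17.6% in NSC Bmi1Over, which orders the libraries as *Ephb1*, *Ephb2* and *Ephb6* do, and its part in these differences was not tested. Of the 7 oligodendrocyte lineage markers 5 were higher in NSC Bmi1Over replicate 2 than in replicate 1, among them *Pdgfra* (16.5 and 44.5 CPM in replicates 1 and 2, beside 27.9 and 34.4 CPM in NSC), *Cspg4* (250.3 and 424.5 CPM, beside 197.1 and 269.8 CPM) and *Sox10* (0.286 and 4.64 CPM, beside 2.50 and 1.58 CPM), and *Olig1* and *Olig2* were lower. The neuronal marker *Dcx* was at 3.83 and 10.2 CPM, beside 9.09 and 7.79 CPM in NSC. *Tubb3*, *Snap25*, *Syt1* and, at 0 and 6 reads, *Stmn2* were also higher in replicate 2. *Map2* (919.0 and 788.3 CPM) and *Rbfox3* (1.94 and 1.38 CPM) were lower in replicate 2. The part of these cells in the EphB differences was not tested either.

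**Figure D2:**
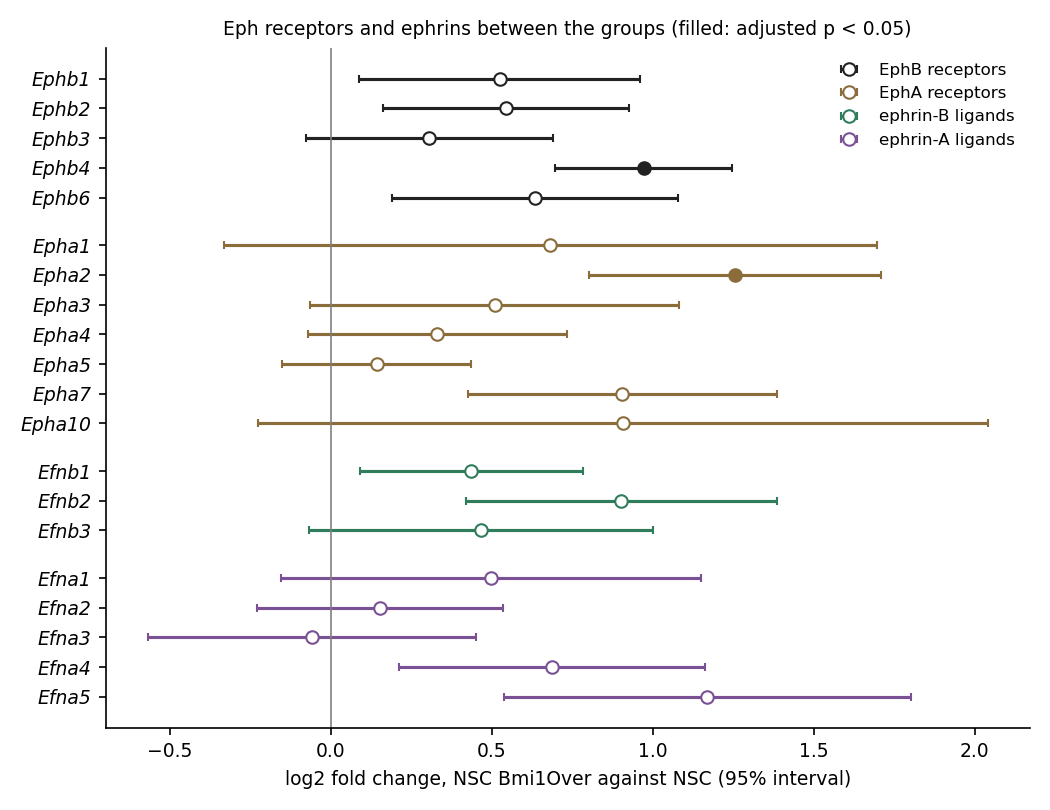
Log2 fold change of the tested Eph receptors and ephrins in the libraries labelled NSC Bmi1Over against NSC, with the 95% interval of edgeR's quasi-likelihood fit and filled points for an adjusted p under 0.05. Of the genes drawn, *Ephb4* (0.97) and *Epha2* (1.26) are filled, and the interval of *Ephb3* spans 0.

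The make-up of the EphB reads does not depend on how the libraries are scaled against each other. *Ephb4* took 13.0% of the reads on the 5 genes in NSC replicate 1 (exact 95% binomial interval 12.1 to 13.8) and 11.6% in NSC replicate 2 (10.7 to 12.5). In the libraries labelled NSC Bmi1Over it took 19.6% in replicate 1 (18.4 to 20.8) and 14.6% in replicate 2 (14.1 to 15.2). The share of *Ephb3* was 37.2% and 38.4% in NSC and 31.9% and 32.9% in NSC Bmi1Over. The shares of *Ephb4* were higher and those of *Ephb3* lower in both NSC Bmi1Over libraries, and for each the exact permutation p was 0.333, the smallest that 2 against 2 libraries can give. The shares of *Ephb1* (16.2% to 18.2%), *Ephb2* (22.8% to 24.4%) and *Ephb6* (8.52% to 9.92%) overlapped between the groups. Counted against the other 4 receptors, there were 14.9 and 13.1 *Ephb4* reads for every 100 in NSC, and 24.3 and 17.2 in NSC Bmi1Over. The intervals cover counting error only.

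**Figure D3:**
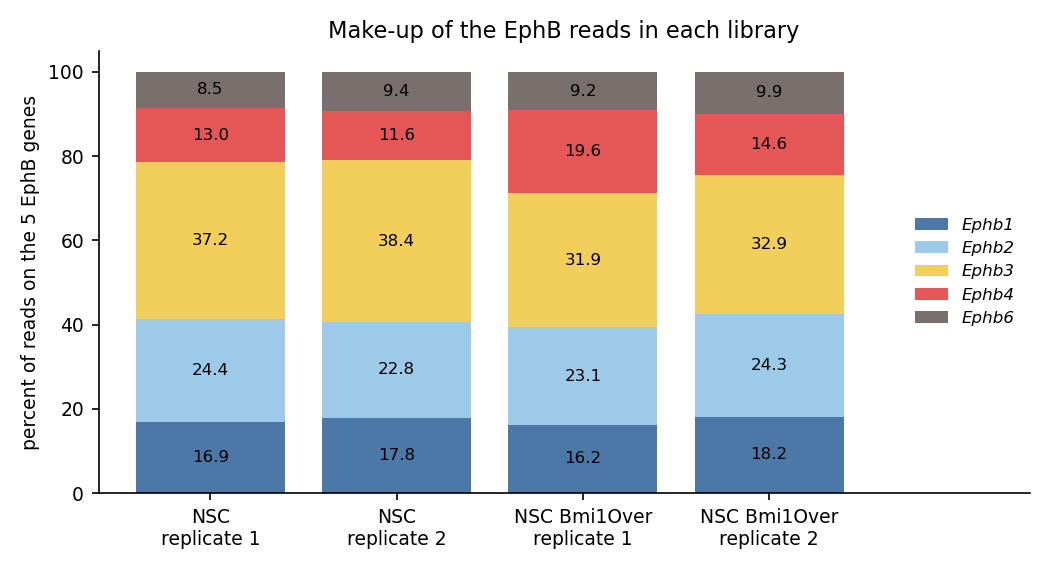
Percent of the reads on the 5 EphB genes that fell on each gene, in each of the 4 RNASeq libraries. *Ephb4* takes 11.6% and 13.0% in NSC and 14.6% and 19.6% in NSC Bmi1Over, and *Ephb3* takes the largest share in every library.

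The transmembrane ephrin-B ligands were expressed beside their receptors, and none of the 3 was called. *Efnb2*, the main ligand of EphB4, was at 61.6 and 91.9 CPM in NSC and at 121.7 and 164.4 CPM in the libraries labelled NSC Bmi1Over, with a log2 fold change of 0.90 (standard error 0.21; adjusted p = 0.0642 from edgeR's test). Its groups did not overlap. *Efnb1* had a log2 fold change of 0.44 (adjusted p = 0.132) and *Efnb3*, whose groups overlapped, of 0.47 (adjusted p = 0.261). Summed per kb of exon, the 3 ligands stood at 24.1 and 32.9 CPM in NSC and at 38.5 and 50.1 CPM in NSC Bmi1Over, close to the summed level of the 5 receptors in the same libraries. The 5 glycosylphosphatidylinositol-anchored ephrin-A ligands gave 0 calls, and ranged from *Efna3* (−0.06) to *Efna5* (1.17, adjusted p = 0.0648), a ligand that also binds EphB2. Of the 9 EphA receptors 7 were tested and 1 was called (beside 2.15% of all genes), *Epha2*, a receptor of epithelia and of many tumours, with a log2 fold change of 1.26 (adjusted p = 0.0307). *Epha5* had the smallest difference of the 7 (0.14, adjusted p = 0.511). The medians were 0.68 for the EphA receptors, 0.47 for the ephrin-B and 0.50 for the ephrin-A ligands.

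Of the 27 genes listed for EphB forward signalling, 26 were tested, 1 was called higher and 0 lower, with a median log2 fold change of −0.13. That is 1 call in 26, beside 2.15% of all genes tested, and 5 of the 26 had an unadjusted p under 0.05, beside 24.2% of all genes. The called gene was *Sdc2*, the heparan sulphate proteoglycan syndecan-2, a known substrate of EphB2 in dendritic spines (0.98, standard error 0.12, adjusted p = 0.0140 from edgeR's test). The lowest value was that of *Nck1*, an SH2 and SH3 adaptor recruited by activated EphB receptors (−0.44, adjusted p = 0.121). Of the 8 genes for reverse signalling 7 were tested and 0 called, from *Stat3* (0.22) down to *Sdcbp*, the PDZ protein syntenin (−0.28), and 0 of the 7 had an unadjusted p under 0.05. Among the 7 genes for shedding, turnover and dephosphorylation 6 were tested and 1 was called, *Psen2*, a catalytic subunit of the gamma-secretase that cleaves EphB2 and ephrin-B within the membrane (0.90, standard error 0.18, adjusted p = 0.0456). Of these 6 genes 4 had an unadjusted p under 0.05, and their median log2 fold change was 0.65. *Psen2* was no longer called without NSC replicate 1 (0.75, adjusted p = 0.232), without NSC Bmi1Over replicate 2 (0.78, adjusted p = 0.0926) or with DESeq2's size factors (adjusted p = 0.0518). In that list *Ptpro*, a phosphatase that acts on Eph receptors, had the highest value (0.94, adjusted p = 0.0722) and *Cbl*, a ubiquitin ligase, the lowest (−0.31, adjusted p = 0.230). As *Ephb2* and *Ephb3* are Wnt targets in the intestine, 12 canonical Wnt targets were listed as well. Of these 10 were tested and 0 called, from *Nkd1* (−0.64, adjusted p = 0.0639) to *Lef1* (0.99, adjusted p = 0.167), and 5 had an unadjusted p under 0.05. None of the 9 genes of the Polycomb machinery was called, from *Rnf2* (−0.30) to *Ring1* (0.17), and 1 had an unadjusted p under 0.05.

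*Ephb6* had the widest range over the 4 libraries of the 5 receptors, 1.01 on the log2 CPM scale. Against 12250 other protein-coding genes whose mean reached 1 CPM, those with the most similar profile around their own mean were *Ptgfr*, *Gpc1*, *Lcat*, *Gnrh1* and *Parm1*, with a root mean square difference between 0.0181 and 0.0256 log2 units over the 4 libraries. Such a likeness was common, as 348 genes lay within 0.1 log2 units of *Ephb6*. Of the 5 genes, *Gpc1*, a glypican, was the most abundant, at 220.8 and 273.0 CPM in NSC and 317.8 and 445.3 CPM in NSC Bmi1Over.

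For H3K27me3, a peak was assigned to a promoter when it lay within 5 kb of any annotated transcription start site (TSS), of which the EphB genes have between 3 (*Ephb1*) and 6 (*Ephb2* and *Ephb3*). The loci of the 5 genes, from 5 kb before the gene to its end, span 708156 bp. Peaks covered 267 bp (0.0377%) of them in NSC and 0 bp in NSC Bmi1Over, and none of the 5 gene bodies held a peak in either list. A promoter peak was thus present at 1 of the 5 genes in NSC, where 8.92% of all protein-coding genes had one, and at 0 of 5 in NSC Bmi1Over, where 4.45% did. With 1 library per condition, the difference between the lists has no replicate check and no test was made. The NSC Bmi1Over list is the shorter one (6810 peaks against 12982), its lowest fold enrichment is 4.03 against 3.52 in NSC, and neither list holds read totals. The methods of the study describe unequal numbers of aligned reads, with the deepest NSC library well above both NSC Bmi1Over libraries, and the part of depth in the shorter list was not tested. A missing peak is therefore not an absence of the mark.

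The NSC peak at *Ephb2* lies 3687 bp upstream of the TSS at 136835988, in no annotated gene, and its nearest start site of a protein-coding gene is that of *Ephb2*. It had a fold enrichment of 4.45 over the MACS2 background and a −log10 q of 3.48, above 74.9% and 74.3% of the NSC peaks on the assembled chromosomes, while 31.8% of these peaks were shorter. Its 0.375 CpG per 100 bp stood at percentile 20.1 of the NSC peaks (median 0.932), and 51.3% of its bases are soft-masked as repeats in the reference, above the median of the NSC peaks. In NSC Bmi1Over the nearest peak to the *Ephb2* TSS was 69.4 kb away. *Ephb2*, the only receptor with a promoter peak, had the lowest level per kb of the 5 in NSC. It was also the lowest in NSC Bmi1Over, where it had no promoter peak. A link between the peak and the level was not tested.

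The other 4 genes had no promoter peak in either list. In NSC the distance from the TSS to the nearest peak was 209.5 kb for *Ephb4*, 436.8 kb for *Ephb3*, 1152 kb for *Ephb1* and 1154 kb for *Ephb6*, and the median over all protein-coding genes was 250968 bp. In NSC Bmi1Over it was 156.2 kb for *Ephb4*, 611.3 kb for *Ephb3*, 2085 kb for *Ephb1* and 1166 kb for *Ephb6*, beside a median of 564083 bp. *Ephb4* was thus nearer to a peak than the median gene in both lists, and *Ephb1*, *Ephb3* and *Ephb6* were farther. *Ephb4*, the receptor with the called difference in expression, had a promoter and gene body without a peak in both lists. The part of H3K27me3 in that difference was not tested.

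**Figure D4:**
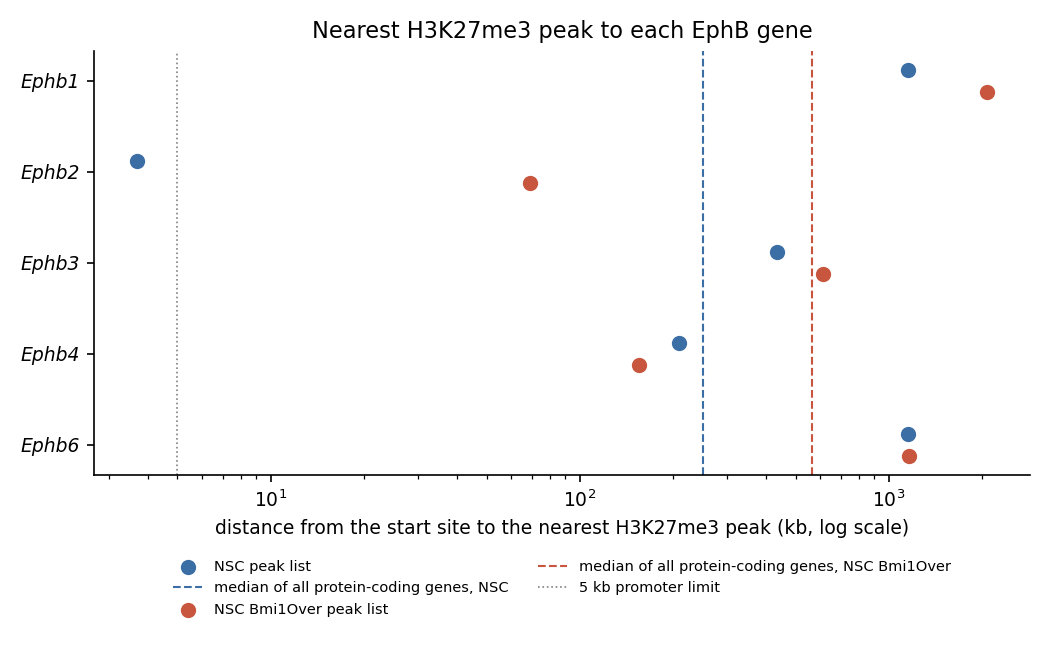
Distance in kb (log scale) from the start site of each EphB gene to the nearest H3K27me3 peak in the NSC and NSC Bmi1Over lists, with dashed lines at the medians of all protein-coding genes and a dotted line at the promoter limit of 5 kb. The only point inside that limit is *Ephb2* in NSC, at 3.69 kb.

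In the rest of the family, promoter peaks were found at 3 of the 9 EphA receptors in NSC and at 2 in NSC Bmi1Over, where 8.92% and 4.45% of all protein-coding genes had one. They belonged to *Epha7*, with 3 peaks in NSC and 5 in NSC Bmi1Over, to *Epha8*, with 4 and 1, and to *Epha10*, with 3 and 0. The widest NSC peaks at these genes measured 2506, 1725 and 764 bp, against 267 bp at *Ephb2*. *Epha7* was at 0.867 CPM per kb in NSC, *Epha10* at 0.0374 and *Epha8* at 0.00756 CPM per kb, all below the level of every EphB gene, as were the EphA genes without a promoter peak *Epha2* (0.829), *Epha3* (0.484) and *Epha1* (0.0867 CPM per kb). *Epha6* was not counted in any library and had no peak in either list. Of the ephrin-B ligands, *Efnb1* had 1 peak of 200 bp in NSC and none in NSC Bmi1Over. Of the 5 ephrin-A ligands 2 had a promoter peak in NSC and 1 in NSC Bmi1Over. *Efna5* had 4 in NSC, the widest of 5324 bp, and 3 in NSC Bmi1Over, and *Efna3* had 1 of 410 bp in NSC. Whether the EphB and EphA genes differ in the mark was not tested.

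**Figure D5:**
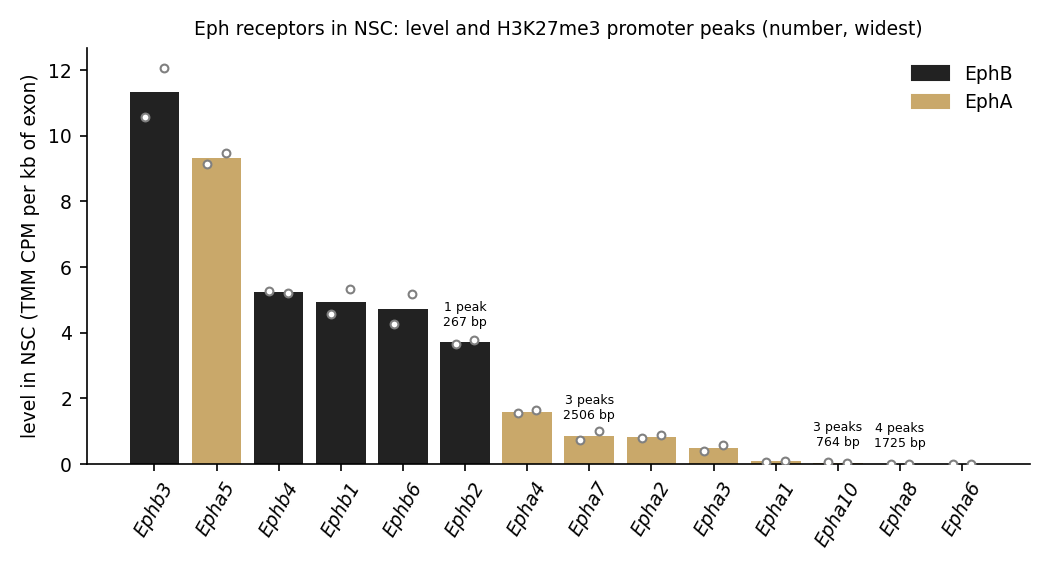
Mean level in NSC of the 14 Eph receptors in TMM-normalised CPM per kb of exon (bars, with open points for the 2 libraries), EphB in black and EphA in tan, with the number of H3K27me3 promoter peaks in NSC and the length of the widest written above the marked genes. The peak at *Ephb2* measures 267 bp and those at *Epha7*, *Epha8* and *Epha10* 764 to 2506 bp.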

How the data were processed

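Reads were trimmed with Trim Galore and aligned to mm10 with STAR, and the authors deposited unnormalised counts of reads per gene, which hold all biotypes. The TruSeq RNA kit and the nearly equal strand columns call for the unstranded counts. Reads shared by overlapping exons count for no gene (33 bp of *Ephb4* with *Zan*, 152 bp of *Ephb1* with *Gm26846*). The reads on no gene stayed out, which left 65.9% to 72.2% of all reads. For H3K27me3, reads were aligned with Bowtie (2.3.4), multi-mapped reads discarded, the weaker replicate of each condition left out and broad peaks called per library with MACS2. The deposited lists give a fold enrichment (a ratio to background) and the −log10 p and q of each peak.

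Symbols came from GENCODE vM21 (50376 of 50686 identifiers matched). Counts were fitted in R 4.3.3 with edgeR 4.0.16 (filterByExpr, TMM, quasi-likelihood F-test, Benjamini-Hochberg threshold 0.05). Standard errors were derived from the log2 fold change and F. CPM use TMM library sizes, and kb the union of exons. DESeq2 1.42.0 was an alternative. Peaks were handled in Python 3.11.15. Promoter sequences are from RefSeq (GRCm38.p6), in which all 5 genes matched and equalled the genome. The fit was tested on simulated counts. The members and lists were chosen with earlier results of these data known. Named genes are the receptors, the ephrin-B ligands, list members called or with the highest or lowest fold change, and the 5 genes most alike to the receptor of widest range. *Bmi1* was the check of the labels, and its CPM were not raised in the libraries labelled NSC Bmi1Over. *Syt1* and *Aldh1l1*, called members of marker lists, are outside that rule, as are *Epha4*, *Epha6*, *Epha7*, *Epha8* and *Epha10*. So are the stem cell, endothelial, oligodendrocyte lineage and other neuronal markers named. Of these, *Emcn*, *Tek* and the oligodendrocyte lineage and other neuronal markers were chosen after their values were seen. The paper describes the cultures as biologically independent.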

Additional observations from a re-analysis of the deposited data

How the results depend on the processing

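*Ephb4* was called, and all 5 receptors kept a positive log2 fold change, under each of the 12 expression alternatives. The number of EphB receptors called, 1 with TMM and edgeR, was 3 with DESeq2's Wald test (*Ephb2* and *Ephb6* added) and 4 without a filter on low counts (*Ephb1* as well), and 1 to 5 with each culture left out in turn, where the lone library of a group is assumed to vary like the others. The number of all genes called, 334, was 1496 with DESeq2's test, 2356 without a filter, 537 without TMM factors (library size only; over all genes the median was then −0.17 on the log2 scale, and *Ephb4* was at 0.82), and 176 to 2546 with each culture left out. The cause of these moves was not tested. With the replicate number as a block, 4 receptors (all but *Ephb3*) and 3459 genes were called. The labels give no shared origin to equal numbers, so that the block has no more standing than the fit without it. The deviations of equal-numbered cultures correlated at 0.169 across genes. With 2 libraries per group the opposite pairing gives the same value with the sign reversed. There is no reference for unpaired cultures, so that this value does not decide on a pairing.

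The *Ephb2* peak was gone (0 genes, 0 bp) with a fold enrichment of at least 5, with peaks of at least 1000 bp and with a window of 1 kb, each of which excludes it by its values, and stayed with a −log10 q of at least 3. The order of receptor levels differed in 2 of its 5 places from that of the NSC means in 3 of the 4 libraries, and in 3 of 4 with the longest transcript as the length. NSC Bmi1Over gave 0 promoter peaks in the main setting. Each alternative only removes peaks or narrows the overlap, so that none could give more. No outlying sample could be sought in groups of 2.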
